A study of Homo sapiens with 26 samples.

Results

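Ribosome footprints of Huh7 cells are compared here between 10 min and 60 min of exposure to PF-06446846 at 1.5 μM, to see which ribosome stalls were present at both times and which were weaker at the later time. The members are the 6 ribo-seq libraries of the first ribosome profiling study whose labels give this dose, with 3 replicates at each time, out of 26 libraries in the series. Huh7 is a human hepatoma cell line that still makes many liver proteins, and PF-06446846 is a small molecule that binds the human ribosome. All groups used here were in 0.5% DMSO: 1.5 μM PF-06446846 for 10 min, 1.5 μM for 60 min, and DMSO alone (vehicle) for 10 min and for 60 min, with 3 libraries in each. The 2 ribo-seq libraries each of 1.5 μM and vehicle from the second study, taken after 60 min, served only to place stall positions. The study's text calls its replicates biological, while the labels give replicate numbers and no culture, and p-values measure the spread between these libraries. All groups are treatments of a single cell line. By the study's methods, every exposure began with a change to fresh, prewarmed medium. The 10 and 60 min are therefore also times since this change, and exposure and medium change cannot be told apart within a treatment.

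A footprint is the stretch of mRNA that a ribosome shields from nuclease, and its place on the transcript shows which codon the ribosome was reading. When a nascent peptide and a small molecule together arrest a ribosome, footprints collect at and before the arrest codon, and codons 3′ to it lose them because fewer ribosomes pass. Signal sequences and transmembrane segments near the N terminus are the parts of secretory and membrane proteins that are made first. Reads are assigned to the codon in the ribosomal P site, which holds the tRNA carrying the growing peptide, and codons are counted from the start codon as codon 1.

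The peak codons below are the positions with the largest rise in share of footprints at 1.5 μM over vehicle in the second study, and so do not use the 10-min or 60-min libraries compared here. RPL27 codon 26 is the exception, as it had the largest rise in the first study and was placed with libraries compared here. Each line shows 30 bases of the coding strand from 6 codons before the peak codon to 3 after it, with the peak codon in capitals. These genes are shown because their windows or downstream reads carry the comparison between times. The sequences are those of GENCODE v44 transcripts on GRCh38, and each lies in the coding sequence.

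HSD17B11 codon 16, chr4:87391014-87391043, minus strand, coding exon 1: cttctcccgttactgatcGTCtgctcccta
RPL27 codon 14, chr17:42998772-42998801, plus strand, coding exon 1: gggaaggtggtgcttgtcCTGgctggacgc
RPL27 codon 26, chr17:42998808-42999938, plus strand, across coding exons 1 and 2: ggacgcaaagctgtcatcGTGaagaacatt
BCAP31 codon 24, chrX:153723164-153723193, minus strand, coding exon 1: gttgtgttgcttctctgcATTcccttcatt
EMC7 codon 17, chr15:34101780-34101809, minus strand, coding exon 1: gtcctgctgctgctgctgCTAtcgggggat
PCBP1 codon 20, chr2:70087783-70087812, plus strand, coding exon 1: ctcaccattcggcttcttATGcacggaaag
PCBP2 codon 20, chr12:53454840-53454869, plus strand, coding exon 1: ctcaccatccggctacttATGcatggaaag
CDH1 codon 729, chr16:68828176-68828205, plus strand, coding exon 14: ctgattctgctgctcttgCTGtttcttcgg
ARF1 codon 25, chr1:228097169-228097198, plus strand, coding exon 1: cgcatcctcatggtgggcCTGgatgctgca
ARF4 codon 25, chr3:57584448-57597086, minus strand, across coding exons 1 and 2: cgcattttgatggttggaTTGgatgctgct
FUCA2 codon 30, chr6:143511536-143511565, minus strand, coding exon 1: ccgccgtgccctgcccacAGCgccacgcgc
TMED2 codon 25, chr12:123584691-123584720, plus strand, coding exon 1: tcgggctatttcgttagcATCgacgcccat

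The PCBP1 and PCBP2 stretches share 27 of 30 bases and those of ARF1 and ARF4 share 23 of 30. Reads with up to 5 equally good alignment sites were kept by the authors, and how many footprints these paralogs share was not measured here. For PCBP1 and PCBP2 the study states that the mapping of most reads is ambiguous. Peak codons lay within the first 50 codons in 16 of the 21 genes of the 60-min stall list and in 13 of the 24 genes of the 10-min-only list described below. The peak codon placed in the first study was the same as in the second in 7 and 8 genes, respectively.

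The 10-min libraries held 6871492, 9755922 and 9502848 reads on coding sequences (CDS) and the 60-min libraries 22224137, 6993637 and 11251022, over 12325 transcripts. Of 9 hepatocyte markers, 8 were found by gene name, and these were present in all 6 libraries. Albumin (ALB) was not among the 8. AFP, the fetal serum protein of liver, was between 4802 and 7587 RPM (reads relative to all CDS reads of the library, without TMM scaling) per kilobase. HNF4A, a liver transcription factor, was between 152 and 189 in the same unit. Of 9 markers of other cell types, 4 were found. The fibroblast gene DCN was at 0 in most libraries (at most 0.337 in the same unit) and the endothelial gene PECAM1 was between 5.65 and 9.20. The epithelial gene EPCAM was at 85.9 to 126 and the macrophage marker CD68 at 45.2 to 55.7. Replicates 1 and 2 of the 10-min treatment stood apart. They shared 78 codons in 56 transcripts at which each held at least 2 RPM (reads relative to all CDS reads of the library) and at least 5 times every other library of the 12 compared (plus 0.1 RPM), while the other 65 of the 66 pairs of libraries shared none. Vehicle 10-min replicate 2 alone held 766 such codons and 10-min replicate 1 alone 333. For this reason several results below are also given with replicate 3 as the only 10-min library.

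Stalls present after 60 min were taken from the study's own list of transcripts with an altered footprint distribution and fewer reads 3′ to the stall, of which 21 genes are used. A further 24 genes met the study's criteria after 10 min and are not in that list. The study chose both lists on the same libraries that are compared here. A high share of footprints and fewer reads 3′ to the stall at either time in the 60-min list are therefore built into the choice. So are fewer such reads after 10 min, and a weaker effect after 60 min, in the 10-min-only list. None of these is independent evidence. Among the members are RPL27, a protein of the large ribosomal subunit, PCBP1 and PCBP2, which bind poly(C) RNA, and the small GTPases ARF1 and ARF4.

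The stall peaks of the 60-min list were visible after 10 min and after 60 min. Within 3 codons either side of the peak codon, the median gene held 12.9%, 12.1% and 13.1% of its CDS reads in the 10-min libraries and 8.95%, 10.4% and 14.9% in the 60-min libraries, against 1.35% to 2.71% in the 6 vehicle libraries. Every 1.5 μM library lay above every vehicle library in this median, and the 2 times overlapped, with 60-min replicate 1 lowest and 60-min replicate 3 highest. The mean share was lower after 60 min in 16 of 21 genes, with a median difference of −2.40 percentage points. That difference was −1.22 without 60-min replicate 1, −1.39 without 10-min replicate 1 and −0.856 with 10-min replicate 3 alone. All 3 libraries with compound exceeded all 3 vehicle libraries of the same time in 18 of the 21 genes after 10 min and in 15 after 60 min, and these 15 were among the 18. With the peak codon placed the same way in all 10996 transcripts with reads in every library, 8.18% met this after 10 min and 4.77% after 60 min. The mean was lower after 60 min in 49.9%, and since the study drew the list on the 60-min libraries nothing is read from the difference.

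HSD17B11, a dehydrogenase that acts on steroids at the endoplasmic reticulum (ER) and lipid droplets, had the highest shares. Its window held 53.7%, 45.6% and 45.6% of the CDS reads after 10 min and 43.7%, 50.5% and 65.7% after 60 min, compared with 3.81% to 7.66% with vehicle. Codon 16 on its own held 43.7%, 39.3% and 36.9% after 10 min and 32.9%, 42.6% and 56.8% after 60 min. The groups overlapped, and no loss with time was detectable for this stall. EMC7, a subunit of the ER membrane protein complex that inserts transmembrane segments, held 31.0%, 28.1% and 26.8% after 10 min and 21.2%, 29.4% and 28.9% after 60 min. PCBP1 held 18.1%, 15.3% and 19.4% and then 15.1%, 13.9% and 19.9%. In CDH1, which encodes E-cadherin and stalls far from its start, the window around codon 729 held 3.30%, 3.37% and 4.58% after 10 min and 3.99%, 1.82% and 2.28% after 60 min, and the 60-min libraries overlapped those with vehicle.

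In 3 genes of the 60-min list every 60-min library was below every 10-min library, and in none was every one above, while 4.53% of all transcripts were below and 3.27% above. With peak codons placed from the first study, 1 gene was below and 2 were above, and with the peak codon alone 1 was below. LTBP3, which binds latent TGF-β, held 19.8%, 17.8% and 23.01% of its reads in the window after 10 min and 1.71%, 13.3% and 15.8% after 60 min. CD99, a membrane glycoprotein, held 12.9%, 10.9% and 9.84% after 10 min and 8.95%, 9.09% and 7.40% after 60 min. SUMF2, related to the enzyme that activates sulfatases, held 5.50%, 13.6% and 6.35% and then 4.20%, 1.52% and 4.15%, and the later values overlapped the range with vehicle (0.662% to 3.30%). These separations are descriptions, since a comparison of 3 with 3 libraries cannot give an exact permutation p below 0.1.

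**Figure D1:**
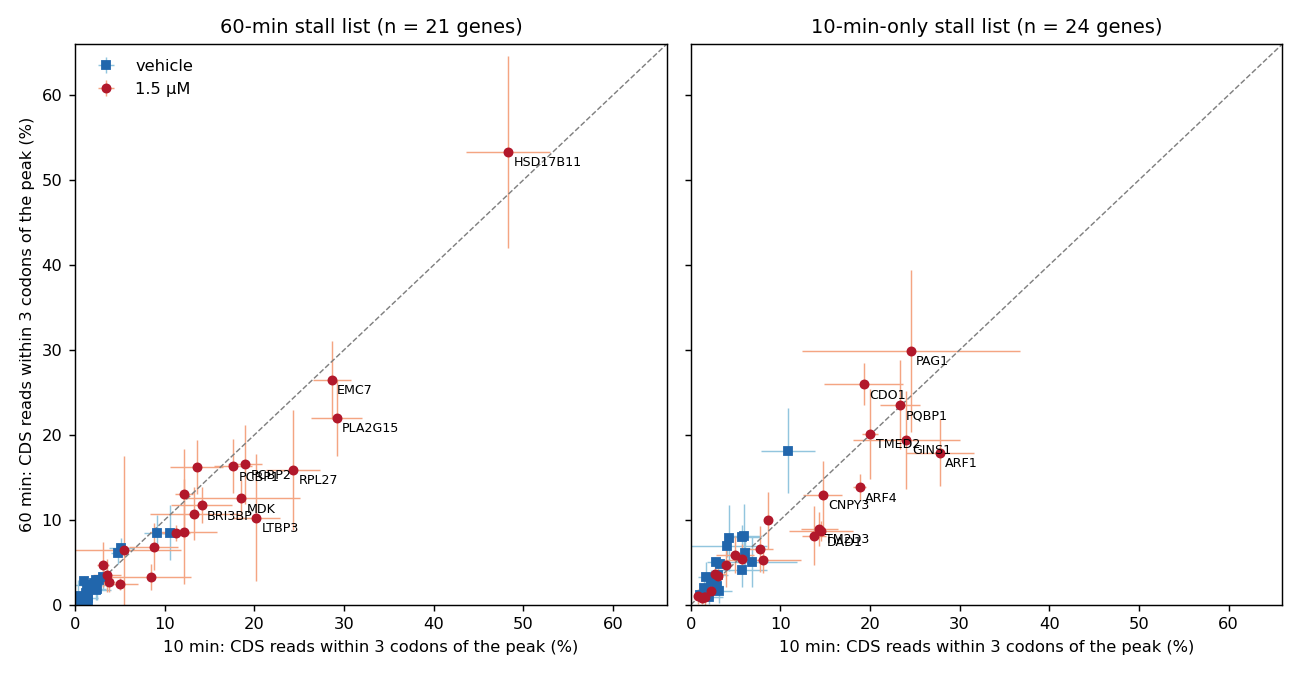
Share of CDS reads within 3 codons of the stall peak (percent, mean and SD of 3 libraries) after 10 min (x axis) and 60 min (y axis) for each gene of the 60-min list (left) and the 10-min-only list (right), with 1.5 μM in red circles, vehicle in blue squares and a dashed line at equality. At 1.5 μM, 16 of 21 genes of the 60-min list and 14 of 24 of the 10-min-only list lie below the line. Genes of the 60-min list gather near the origin with vehicle. LTBP3, CD99 and SUMF2 (left) and ARF1, ARF4, DAD1, TM2D3 and FUCA2 (right) had every 60-min library below every 10-min library.

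In the 10-min-only list the windows held less and differed by gene. The median gene held 10.9%, 7.46% and 8.44% after 10 min, 7.15%, 7.35% and 9.37% after 60 min, and 2.24% to 3.27% with vehicle. The mean was lower after 60 min in 14 of 24 genes, with a median difference of −0.496 percentage points that was −0.218 without 10-min replicate 1 and 0.0253 with 10-min replicate 3 alone. Every 60-min library was below every 10-min library in 5 genes and above in none, against 4.53% and 3.27% of all transcripts, and with other windows or peak codons 3 to 7 genes were below. The 5 were DAD1, TM2D3, ARF1, ARF4 and FUCA2.

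ARF1, a small GTPase that recruits coat proteins at the Golgi, held 31.6%, 27.7% and 24.0% of its reads in the window after 10 min and 14.3%, 17.3% and 22.1% after 60 min. The vehicle libraries held 4.44% to 9.40%, so the share was lower in every 60-min library and still above vehicle. Its paralog ARF4 held 19.3%, 19.2% and 18.0% and then 12.3%, 15.4% and 13.8%, and the highest vehicle library held 12.5%. DAD1, a subunit of the oligosaccharyltransferase that attaches N-glycans in the ER, held 18.5%, 11.6% and 13.6% and then 7.93%, 7.99% and 9.99%. Its 60-min values overlapped vehicle, of which 60-min replicate 2 held 8.13%. FUCA2, a secreted fucosidase, held 15.2%, 12.5% and 13.6% and then 4.10%, 9.91% and 10.4%.

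Other genes of the same list had overlapping shares at the 2 times. TMED2, a p24 cargo protein of early secretory vesicles, held 19.2%, 20.9% and 20.0% after 10 min and 14.2%, 24.4% and 21.8% after 60 min, with 2.32% to 5.10% in vehicle. CDO1, the cysteine dioxygenase of liver, held 24.2%, 17.8% and 15.8% and then 23.3%, 26.7% and 28%. Its later values were higher in mean (25.97% ± 2.45 against 19.3% ± 4.37, SD, n = 3) and overlapped the earlier ones. CNPY3, a chaperone of Toll-like receptors, held 13.6%, 13.3% and 17.3% and then 8.42%, 14.3% and 16.1%. In SEC11C, C1D, AGPAT5, SLC17A5, SSR1, ORC6, BIRC5, ARGLU1 and DKK1 the 1.5 μM libraries overlapped the vehicle libraries of the same time at both times. In these 9 genes the codon placed from the second study did not mark a peak in the first.

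Where a transcript had more than 1 peak, the peaks did not move together in every case. In RPL27, codons 13 to 17 held 24.5%, 26.6% and 20.9% of the CDS reads after 10 min and 8.29%, 22.4% and 16.5% after 60 min. Codons 23 to 28 held 48.0%, 42.0% and 47.5% and then 48.5%, 50.9% and 56.5%, with every 60-min library above every 10-min library. With vehicle, the later codons held 9.38%, 5.08% and 9.22% after 10 min and 11.003%, 13.3% and 11.2% after 60 min, also without overlap. With compound the first peak was thus lower in mean with overlap, and the second was higher without overlap. Segments of a transcript are shares of the same CDS total, so a lower share at the first peak raises the share elsewhere. How much of the rise at the second peak this makes up was not tested. The second was also higher without overlap with vehicle. With vehicle codons 13 to 17 held a mean of 1.29% after 10 min and 2.10% after 60 min, with overlap. These 6 values of each segment are descriptions, since the segments were chosen after their values were seen.

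In BCAP31, an ER membrane protein involved in export and quality control, codons 11 to 15 held 7.55%, 6.64% and 5.70% after 10 min and 2.87%, 5.47% and 4.20% after 60 min. All 60-min libraries were below all 10-min libraries at this first peak. The second peak, at codons 22 to 26, held 11.4%, 10.1% and 15.97% and then 13.01%, 12.2% and 18.9%, with overlap. In MDK, a secreted heparin-binding growth factor, the 3 peaks at codons 7 to 11, 14 to 18 and 19 to 23 overlapped between the times. The first of them held 17.5%, 18.5% and 13.3% and then 8.54%, 9.52% and 20.96%.

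**Figure D2:**
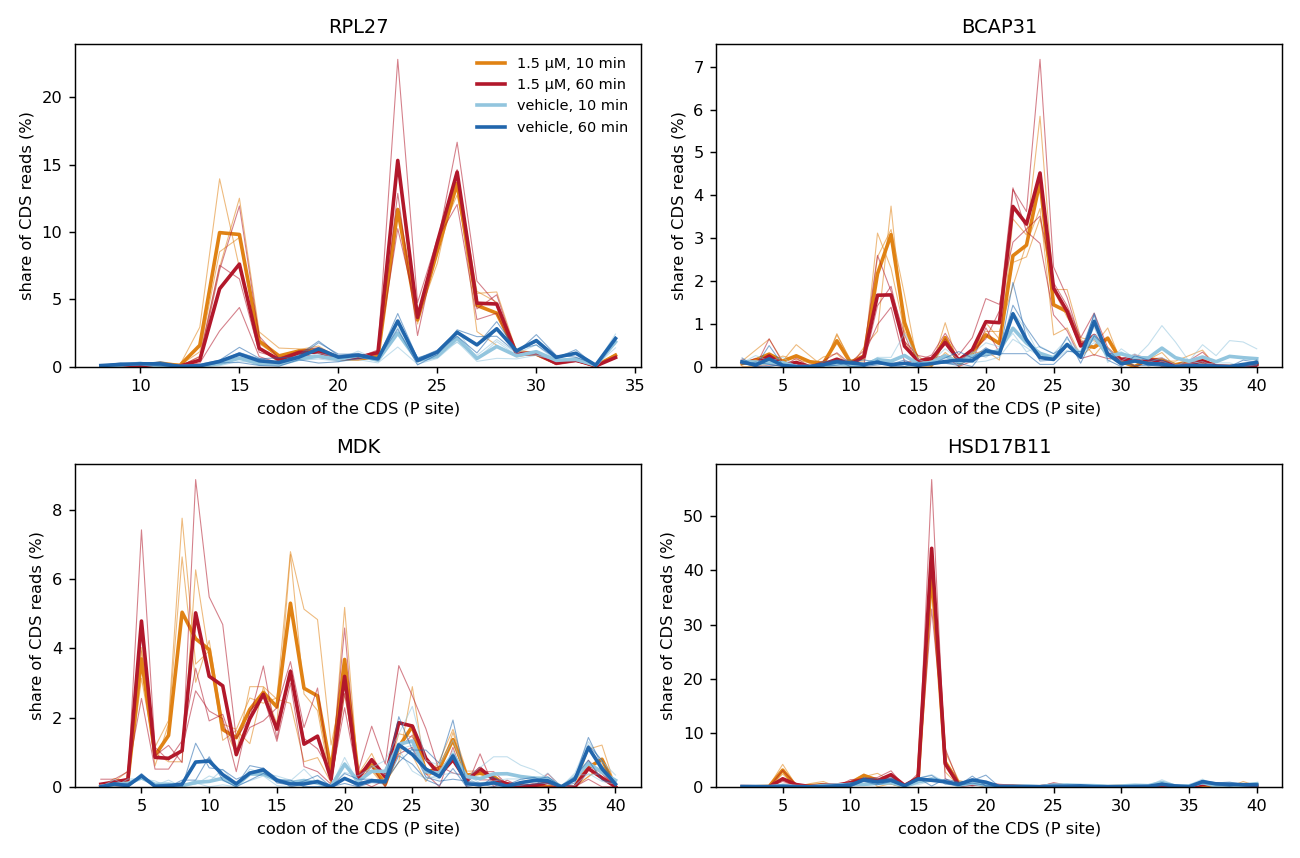
Footprints per codon as a percentage of the CDS reads (y axis) against the codon number from the start (x axis) in RPL27, BCAP31, MDK and HSD17B11, with thin lines for single libraries and thick lines for the means of the 4 groups. The means of the first RPL27 and BCAP31 peaks are lower after 60 min, and vehicle lies below both 1.5 μM groups at these peaks.

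Codons raised at least 4-fold by 1.5 μM in both replicates of the second study gave a wider set, added after the data had been seen. There were 45 such codons in 21 transcripts among 84348 codons compared, and 35 of them fell in genes of the stall lists. All 3 compound libraries exceeded the 3 vehicle libraries of the same time at 41 of the 45 codons after 10 min and at 39 after 60 min, where 9.16% and 2.87% of all 84348 did. Of the 37 that could be tested between the times, 28 were lower and 9 higher after 60 min relative to their transcript (median log2 change −0.19, against 0.07 over all codons tested). Many of them lie together in RPL27, PCBP1 and PCBP2, and most reads of the last 2 map ambiguously, so the codons are not separate measurements. The share of all tested codons that was lower was not counted, and nothing is read from the 28. At an unadjusted p under 0.05 there were 5, all lower, while 3.17% of all 77046 codons tested passed it (2.14% lower and 1.03% higher). After adjustment no single codon passed an FDR of 0.1 (0% of 77046 with edgeR's quasi-likelihood test, against 55 with DESeq2, described below).

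Codon 20 of SSR4, a subunit of the translocon-associated protein complex, held 2.39%, 2.00% and 2.31% of the CDS reads after 10 min and 0.659%, 0.758% and 1.32% after 60 min. With vehicle it held at most 0.363%, so the footprint excess at this codon was smaller after 60 min in every library and still above vehicle (log2 change −1.30, standard error 0.39, adjusted p = 1). Codon 15 of NDUFB8, a subunit of respiratory complex I, held 8.72%, 7.75% and 7.24% and then 0.938%, 5.66% and 4.42% (log2 change −1.13, adjusted p = 1). Neither gene is in the stall lists. The other 3 codons under this p were RPL27 codon 13 (log2 change −1.73), IFI30 codon 81 (−1.33) and BCAP31 codon 13 (−0.89).

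The study proposes that the loss of reads 3′ to a stall could stand in for how far translation was inhibited, which was not tested here. Reads 3′ to the stall were counted after the position of the largest cumulative excess (Dmax) in the second study, or after codon 50 in transcripts outside the lists, and normalized over all transcripts. Against vehicle, 20 of the 21 genes of the 60-min list were lower at an FDR of 0.1 after 10 min and the same 20 after 60 min, with median log2 changes of −1.32 and −1.23 (edgeR's quasi-likelihood test, Benjamini-Hochberg). The study chose the list for this depletion on these libraries, so these calls are not independent evidence. Over all 10887 transcripts 0.441% were called lower after 10 min and 0.266% after 60 min, and their median log2 changes were 0.01 and 0.00. With replicate 3 as the only 10-min library, 6 of the 21 were called after 10 min (0.0551% of all) and 20 after 60 min (0.239% of all), with medians of −1.17 and −1.24. That fit has 1 library in place of 3 at 10 min, and the medians moved less than the counts.

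Levels from here on are in CPM (reads relative to the TMM-scaled total of the library). RPL27 had 218, 256 and 271 CPM 3′ to its stall after 10 min and 337, 252 and 254 after 60 min, against 905 to 1139 with vehicle. MDK had 44.2, 58.8 and 55.4 and then 42.9, 53.4 and 51.8, against 147 to 216. HSD17B11 had 22.3, 27.7 and 25.5 and then 30.0, 30.4 and 20.4, against 82.5 to 133. In each of the 3 genes the compound groups overlapped each other and lay far below vehicle, with log2 changes against vehicle of −2.01 and −1.79 (RPL27), −1.86 and −1.87 (MDK), and −2.17 and −1.84 (HSD17B11) after 10 and 60 min.

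CDH1, MST1, LTBP3 and CCR1 were of the same kind, with log2 changes against vehicle between −1.93 and −1.51 after 10 min and between −2.03 and −1.58 after 60 min. MST1 encodes a secreted growth factor of liver and CCR1 a chemokine receptor with few reads (0.850 to 1.53 CPM after 10 min). IFI30, the lysosomal thiol reductase, was the exception in the list, at −0.26 (adjusted p = 0.455) and −0.58 (adjusted p = 0.402). The depletion was weaker after 60 min in 12 of the 21 genes and stronger in 9.

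Between the times, reads 3′ to the stall rose past an FDR of 0.1 in 3 of 10691 transcripts (0.0281%), which were TXNIP, GADD45B and FTH1, and no member of either list was among them. The call of FTH1 was lost in 8 of the 12 alternatives run. Leaving out 1 library gave 1 to 33 calls, and without 60-min replicate 1 ARF1 of the 10-min-only list passed. In the 60-min list 15 of the 20 genes tested were higher after 60 min (median log2 change 0.10, range −0.12 to 0.58), and over all transcripts 5587 were higher (median 0.01). The same change with vehicle had a median of −0.01 in these genes. PCBP2 was the only member at an unadjusted p under 0.05, where 4.36% of all transcripts stood (1.87% higher and 2.49% lower). It had 297, 312 and 366 CPM after 10 min and 430, 464 and 414 after 60 min, against 765 to 878 with vehicle, so reads 3′ to its stall were higher at the later time in every library (log2 change 0.43, standard error 0.11, adjusted p = 0.839). Its paralog PCBP1 had 242, 259 and 266 and then 263, 306 and 292 (log2 change 0.17). As the study states that most reads of PCBP1 and PCBP2 map ambiguously, their changes are not separate measurements.

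**Figure D3:**
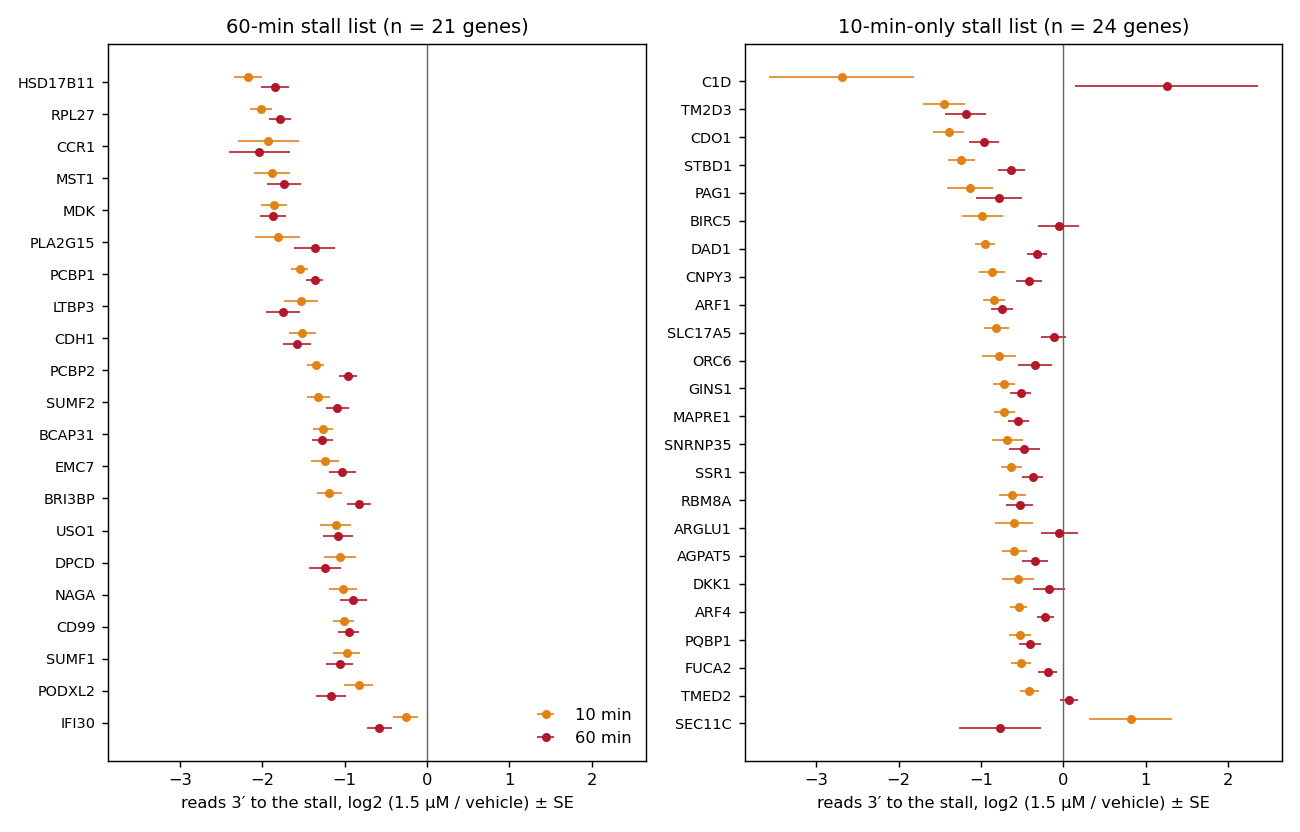
Log2 change of reads 3′ to the stall at 1.5 μM relative to vehicle (x axis, with standard error) after 10 min (orange) and 60 min (red) for each gene (y axis) of the 60-min list (left) and the 10-min-only list (right). In the left panel both times lie near each other and below 0, with medians of −1.32 and −1.23, and in the right panel 60 min lies closer to 0, with medians of −0.72 and −0.39.

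In the 10-min-only list, 11 of 24 genes had fewer reads 3′ to the stall than vehicle after 10 min at an FDR of 0.1, and 3 of the 11 (TM2D3, CDO1 and ARF1) also after 60 min. The median log2 change was −0.72 after 10 min and −0.39 after 60 min, and it was higher after 60 min in 23 of 24 genes. Not every gene lay below vehicle, with log2 changes up to 0.82 after 10 min and 1.26 after 60 min. With replicate 3 as the only 10-min library, none of the 24 was called after 10 min and 2 after 60 min, and the medians were −0.66 and −0.39. Both contrasts of time use the same 12 libraries from which the study drew the list. The test of the difference between them, the interaction of dose and time, called 0 of 10887 transcripts (0%) at an FDR of 0.1. An unadjusted p under 0.05 was reached by 8 of the 24 genes, of which SEC11C alone had the opposite sign, and by 4.75% of all transcripts, and the lowest adjusted p in the list was 0.835.

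DAD1 had 50.5, 60.1 and 62.2 CPM 3′ to its stall after 10 min, 87.8, 75.5 and 67.9 after 60 min, 108, 109 and 116 with vehicle for 10 min, and 96.6, 91.8 and 101.3 with vehicle for 60 min. Every 60-min library with compound was above every 10-min library and below every vehicle library. The log2 change against vehicle was −0.95 (adjusted p = 0.000795) after 10 min and −0.32 (adjusted p = 1) after 60 min, and the interaction was 0.62 (adjusted p = 0.835). Among the other 7 genes, SLC17A5, the lysosomal sialic acid transporter, was at −0.81 and −0.12 (interaction 0.70), and TMED2 at −0.41 and 0.07 (interaction 0.48). STBD1, a glycogen-binding protein of the ER, was at −1.24 and −0.63 (interaction 0.61).

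A part of this narrowing lay in the vehicle libraries. From 10 to 60 min with vehicle, 18 of the 23 genes tested were lower, with a median log2 change of −0.19 and 6 at an unadjusted p under 0.05, of which 5 were lower and ARF1 higher (7.29% of all transcripts, and 0% at an FDR of 0.1), and with 1.5 μM 19 of 23 were higher, with a median of 0.18. At 1.5 μM, 4 genes were higher after 60 min at an unadjusted p under 0.05, namely DAD1 (log2 change 0.43, adjusted p = 0.948), ARF1 (0.41), ARF4 (0.35) and TMED2 (0.31). In BIRC5, the apoptosis inhibitor survivin, the compound libraries held 12.6, 14.2 and 14.3 CPM and then 17.5, 14.4 and 12.9, and a single vehicle library, 10-min replicate 2, held 41.2 where the other vehicle libraries held 12.6 to 20.3. ARF1 was higher after 60 min with compound (299, 351 and 369 to 369, 520 and 458 CPM) and also with vehicle (634, 525 and 670 to 788, 689 and 771), and its interaction was 0.10 (adjusted p = 0.908). C1D and SEC11C, at 5.70 CPM or less 3′ to their stalls, carried the extremes of the list and are uncertain. Their positions from the second study were codon 134 of 142 and codon 151 of 162, so only the last codons were counted. The first study placed them at codons 61 and 77. Their Dmax in the second study was 0.0339 and 0.0032, too small to mark a stall. Dmax was also small in BIRC5 (0.0365), ORC6 (0.0412) and MAPRE1 (0.0525), among others, which remain in the counts and medians above.

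Over the first part of coding sequences the mean footprint density with compound was higher after 10 min than after 60 min, and whether the libraries overlapped depended on the averaging. The density over codons 2 to 50 of each transcript was taken relative to its own CDS mean, and these ratios were averaged in each library over 8046 transcripts of at least 200 codons. It was 0.811, 0.802 and 0.746 after 10 min and 0.697, 0.749 and 0.667 after 60 min (p = 0.2 by a two-sided exact permutation of the libraries, adjusted p = 0.3 over the 9 regions compared). The difference of −0.0820 was −0.0417 with 10-min replicate 3 alone. The vehicle libraries lay at 0.622, 0.695 and 0.673 after 10 min and 0.745, 0.661 and 0.670 after 60 min. All 10-min libraries with compound exceeded all vehicle libraries, by little in replicate 3, and the 60-min libraries overlapped them. Over transcripts of at least 400 codons replicate 3 (0.759) lay within the vehicle range (up to 0.765), and in 3 of the 4 other ways of averaging tried the 10-min and 60-min libraries with compound did not overlap (exact permutation p = 0.1).

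Nearest to the start, codons 2 to 15 held 0.503, 0.530 and 0.450 of the CDS mean after 10 min and 0.401, 0.446 and 0.365 after 60 min, without overlap (exact permutation p = 0.1, which no design of 3 against 3 can go below), though they overlapped as medians over transcripts. Codons 16 to 50 held 0.934, 0.911 and 0.864 and then 0.815, 0.870 and 0.788, with overlap. Codon 1 held 1.41, 1.50 and 1.23 and then 1.18, 1.32 and 0.774, with overlap, while with vehicle it was 0.805 ± 0.134 after 10 min and 1.19 ± 0.226 after 60 min (SD, n = 3). Over codons 51 to 100 the density was 1.03 ± 0.00381 and 1.02 ± 0.00607 (SD, n = 3), a small difference that was without overlap (exact permutation p = 0.1) but overlapped in all 4 other ways of averaging tried (other filters, medians, pooled reads). Over the last 15 codons except the very last it was 0.930, 0.931 and 0.932 and then 0.991, 0.935 and 0.959, higher in every 60-min library (exact permutation p = 0.1), against 0.961 to 1.03 with vehicle, and the times overlapped here too in all 4 other ways. The last codon before the stop held 6.22, 9.72 and 11.1 times the mean after 10 min and 8.49, 8.64 and 10.3 after 60 min (exact permutation p = 1).

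**Figure D4:**
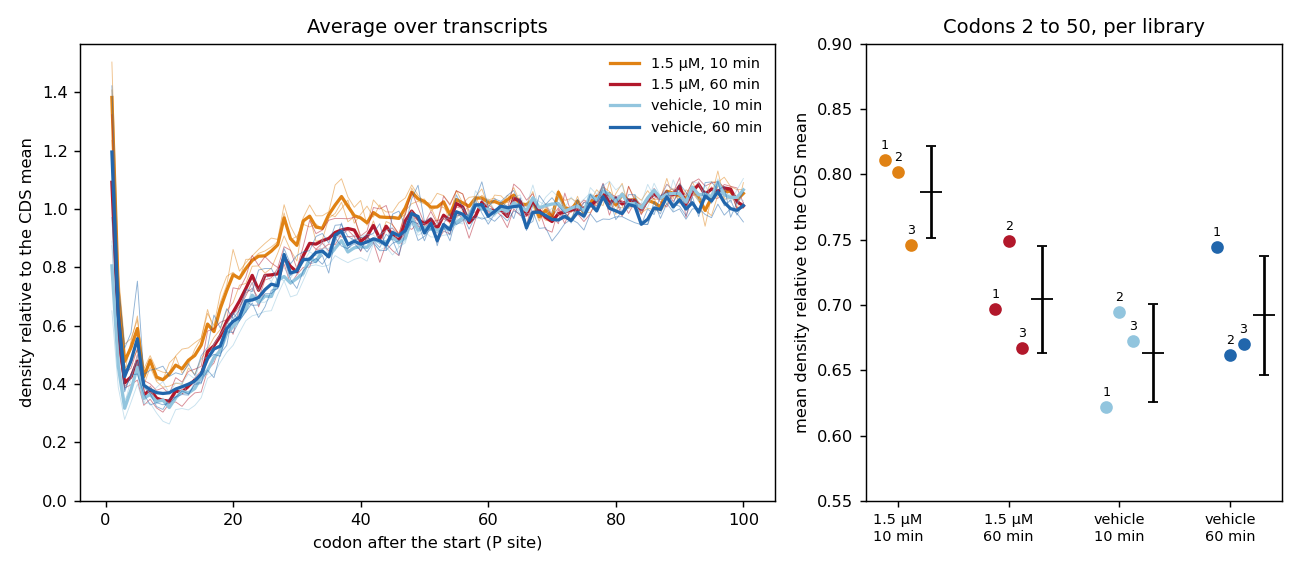
Left, average footprint density relative to the CDS mean (y axis) over codons 1 to 100 (x axis), with thin lines for libraries and thick lines for group means; right, the density over codons 2 to 50 in each library, with mean and SD. Over codons 2 to 50 the 10-min libraries with compound (0.746 to 0.811) sit above all vehicle libraries, and the 60-min libraries (0.667 to 0.749) overlap both.

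Gene by gene, the share of reads in the first 50 codons was lower after 60 min in most transcripts with compound and higher in most with vehicle. Of 5169 transcripts tested, 3873 (74.9%) had a lower share after 60 min at 1.5 μM, with a median log2 change of −0.18. With vehicle 39.5% of 5152 were lower (median 0.10), and the interaction of dose and time was negative in 72.6% (median −0.29). In the averaged density over codons 2 to 50, vehicle replicate 1 was lowest after 10 min (0.622) and highest after 60 min (0.745). The other vehicle libraries held 0.695 and 0.673, then 0.661 and 0.670. Vehicle fits without single libraries were not run for this share, so its dependence on replicate 1 was not tested. At an unadjusted p under 0.05, 10.4% of the transcripts passed at 1.5 μM, 10.1% lower and 0.271% higher. After adjustment only XBP1 passed an FDR of 0.1 at 1.5 μM (0.0193% of transcripts), and 0 passed with vehicle (0%, with 10.8% at an unadjusted p under 0.05) or for the interaction (0%, with 13.6%). Leaving out 1 library gave 0 to 74 calls at 1.5 μM, with 74 without 10-min replicate 3. With 10-min replicate 3 alone, 0 of 5350 transcripts passed and 69 had an unadjusted p under 0.05.

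XBP1, a transcription factor of the unfolded protein response, held 2.51%, 1.70% and 1.90% of its reads in the first 50 codons after 10 min and 0.598%, 0.662% and 0.531% after 60 min. The vehicle libraries held 0.524% to 1.21%. Every 10-min library with compound was above every other library (log2 change −1.78, standard error 0.29, adjusted p = 0.0259 from edgeR's quasi-likelihood test), on 37, 35 and 41 reads in the region against 27, 9 and 14. The call was lost in 6 of 13 alternatives, among them those without 10-min replicate 1 (adjusted p = 0.314), without 10-min replicate 2 (adjusted p = 0.152) and without 60-min replicate 3 (adjusted p = 0.356). Reads over the whole XBP1 CDS did not move with it (log2 change 0.00, standard error 0.11). Below the threshold, the lowest p-values belonged to ACAA1, a peroxisomal thiolase (5.47%, 3.98% and 3.07%, then 1.08%, 2.48% and 1.46%), SPCS2, a subunit of signal peptidase (4.41%, 6.51% and 4.74%, then 1.83%, 3.09% and 1.51%), CEP78 and LAMC1. These 4 were chosen after their values were seen, at adjusted p = 0.162 each.

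Single codons across all transcripts showed the same 2 libraries. DESeq2 called 55 codons in 44 transcripts (0.0714% of 77042), all lower after 60 min, and edgeR called none (1646 lower and 793 higher at an unadjusted p under 0.05). At 45 of the 55 codons, 10-min replicates 1 and 2 were above every other library, and at 49 replicate 3 was within the range of the others. Histone genes held 15 of the codons and ribosomal protein genes 13, families in which reads can be shared between copies. The share of these families among all codons tested was not counted, so no enrichment is read from these counts. Codon 2 of SNRPB, a core spliceosome protein, had 131, 98 and 9 reads after 10 min, 10, 5 and 2 after 60 min and 0 to 7 with vehicle. Codon 76 of RPS12 had 75, 53 and 6, then 3, 1 and 6, and 0 to 23 with vehicle.

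Averaged by codon identity, no codon's density in the P site or A site passed adjustment between the times. None of 122 values (61 codons in each site) passed an FDR of 0.1 with limma (0%, against 2 with vehicle, 1.64%), and 1 had an unadjusted p under 0.05 (0.82%), the glycine codon GGG in the P site, with a log2 change of −0.20. The lowest 3 were GGG, GGC and CGG, and the highest GAA (0.16), TAC (0.14) and CGT (0.13), all in the P site.

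Over whole coding sequences, few genes changed between 10 and 60 min at 1.5 μM, and the vehicle values of those that did were also higher after 60 min. Of 10999 genes tested, 2 passed an FDR of 0.1 (0.0182%) by edgeR's quasi-likelihood test, both higher, and 4.54% had an unadjusted p under 0.05. Those 2 are TXNIP, the thioredoxin-interacting protein, which restrains glucose uptake, and GADD45B, a stress-inducible regulator of growth arrest. TXNIP had 22.2, 19.1 and 19.2 CPM after 10 min and 63.4, 62.0 and 40.9 after 60 min (log2 change 1.47, standard error 0.17, adjusted p = 0.0103). With vehicle it went from 21.5, 17.9 and 15.6 to 53.4, 48.6 and 34.2 (log2 change 1.29, adjusted p = 0.135). GADD45B had 16.2, 17.7 and 14.7 and then 31.3, 51.6 and 54.6 (log2 change 1.49, standard error 0.20, adjusted p = 0.0167), and with vehicle 12.1, 10.7 and 16.3 and then 29.0, 31.6 and 55.3 (1.58, adjusted p = 0.135). Their interactions of dose and time were 0.17 (adjusted p = 0.898) and −0.10 (adjusted p = 0.958).

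Without 60-min replicate 1 the count at 1.5 μM was 23, of which 17 were higher, and with 10-min replicate 3 alone it was 0. With vehicle edgeR called 0 of 11098 genes (0%), with 6.93% at an unadjusted p under 0.05, and DESeq2 called 43, all higher, of the 603 to which it gave an adjusted p. The interaction called 0 of 11167 (0%) with edgeR, where 4.53% had an unadjusted p under 0.05 (2.2% higher and 2.33% lower), and 0 with DESeq2 (448 at an unadjusted p under 0.05). Against vehicle, 0.17% of transcripts were lower over the whole CDS after 10 min and 0.116% after 60 min. At 1.5 μM, 535 genes were higher (4.86%) and 603 lower (5.48%) in every 60-min library than in every 10-min library, compared with 6.3% and 6.23% with vehicle.

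DESeq2 called 13 of 12020 genes at 1.5 μM (0.108%), including TXNIP and GADD45B. Those higher after 60 min also held ATF3, KLF10, DUSP1 and CCN1, which are immediate-early genes, the histone gene H2BC3, and FTH1, the ferritin heavy chain that stores iron. DUSP1, a phosphatase of MAP kinases, had 25.1, 17.3 and 22.5 CPM and then 35.2, 42.5 and 65.5 (edgeR log2 change 1.15, adjusted p = 0.241), with a vehicle change of 1.38. FTH1 had 240, 259 and 232 and then 354, 369 and 390 (log2 change 0.61, edgeR adjusted p = 0.144, DESeq2 adjusted p = 0.000329). Its vehicle change was 0.26, and the interaction was 0.34 (adjusted p = 0.856).

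The 5 lower genes were DDIT4, TRIM56, MYCN, IVNS1ABP and PPDPF. DDIT4, an inhibitor of mTORC1 signalling that responds to stress, had 35.6, 35.8 and 22.1 CPM and then 15.1, 13.2 and 16.7 (log2 change −1.04, edgeR adjusted p = 0.241, DESeq2 adjusted p = 0.00131). With vehicle it had 21.5, 27.2 and 19.6 and then 12.6, 13.3 and 21.2 (−0.54). TRIM56, a ubiquitin ligase of antiviral signalling, had 22.4, 23.7 and 24.1 and then 10.6, 11.9 and 16.5 (log2 change −0.85, edgeR adjusted p = 0.337, DESeq2 adjusted p = 0.0292), against 16.7 to 23.04 and 15.3 to 19.4 with vehicle, and its interaction was −0.68 (adjusted p = 0.856). AMD1, which makes the aminopropyl donor of polyamine synthesis, had the lowest unadjusted p for the interaction (1.02, adjusted p = 0.856). It had 39.8, 31.4 and 39.9 CPM and then 61.2, 41.0 and 58.1 with compound, higher in every 60-min library. With vehicle it had 50.1, 50.1 and 56.5 and then 41.6, 34.1 and 36.9, lower in every 60-min library. DESeq2's calls and AMD1 were named after their values were seen.

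**Figure D5:**
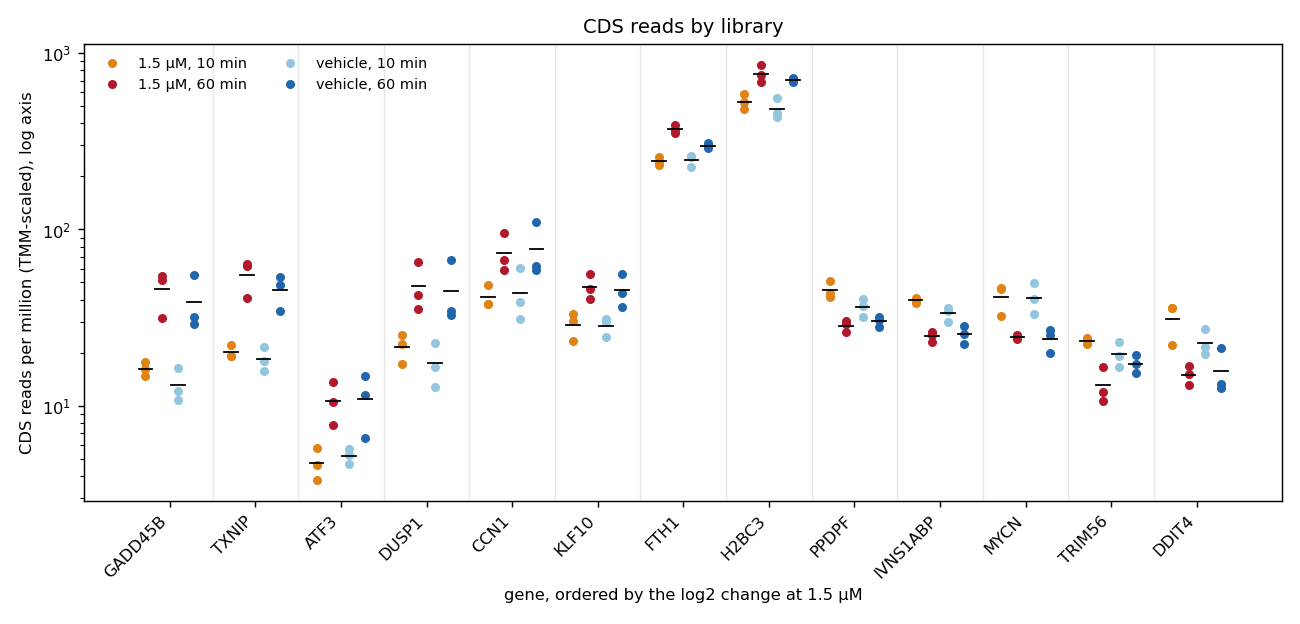
Footprints over the whole CDS (CPM, log axis) in each library of the 4 groups for the 13 genes called by DESeq2 between 10 and 60 min at 1.5 μM, with a bar at each group mean. TXNIP lies at 19.1 to 22.2 and then 40.9 to 63.4 with compound and at 15.6 to 21.5 and then 34.2 to 53.4 with vehicle, while TRIM56 (22.4 to 24.1, then 10.6 to 16.5 with compound) overlaps between the vehicle times.

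Among gene groups, immediate-early genes, which growth factors and stress induce without new protein synthesis, had many members with low p-values in both treatments. Of 51 tested, 10 were higher and 6 lower after 60 min at an unadjusted p under 0.05 at 1.5 μM (1.69% and 2.85% of all genes), with a median log2 change of 0.19 (0.01 over all genes). With vehicle 13 were higher and 5 lower (3.05% and 3.88% of all genes), with a median of 0.21. No member passed adjustment with edgeR. Their most abundant members were CCN2, a matrix-associated growth regulator, at 339, 353 and 317 CPM and then 272, 466 and 462, and ID1, an inhibitor of differentiation factors, at 325, 310 and 257 and then 284, 453 and 347, both with overlap.

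In the integrated stress response, the program of ATF4 and CHOP that stalled or starved ribosomes can engage, none of 21 genes was higher and 3 were lower at an unadjusted p under 0.05 (DDIT4, NUPR1 at −1.02 and CEBPB at −0.43), with a median log2 change of −0.12, while 2.85% of all genes were lower. With vehicle 1 was higher and 2 were lower (3.05% and 3.88% of all genes, median −0.07). The serine synthesis enzymes PHGDH (−0.20) and PSAT1 (−0.01) carried the most reads. ATF3, which DESeq2 called higher after 60 min at 1.5 μM, was counted among the immediate-early genes and not in this list. Of 17 ribosome rescue and quality control genes none passed that p (median 0.11), including VCP (0.11) and RACK1 (0.20). Cholesterol synthesis and uptake (25 genes, median −0.03), ER chaperones (20 genes, 0.01), heat shock proteins (10 genes, 0.02) and tubulins (13 genes, 0.05) also had none. With vehicle 7 of the 13 tubulins were higher and 1 lower at that p (3.05% and 3.88% of all genes, median 0.30). Among their best-read members were HMGCS1 (−0.07), CALR (0.15), HSP90B1 (0.10), HSPA8 (−0.28), HSP90AB1 (0.09), TUBA1B (0.15) and TUBA1C (0.13).

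Ribosomal proteins of the large subunit (50 genes, median 0.05) and small subunit (28 genes, 0.07) had 2 and 1 genes lower and none higher at an unadjusted p under 0.05. Of all genes, 2.85% were lower and 1.69% higher at 1.5 μM. RPL4 was at 0.18, RPL3 at 0.14 and RPSA at 0.11. With vehicle 6 large-subunit genes (median 0.08) and 8 small-subunit genes (median 0.19) were higher and 1 of each lower, against 3.05% and 3.88% of all genes. Translation factors (47 genes, median 0.09) had 1 lower, against 2.85% of all genes, which was EIF4A2 (−0.32), with EEF1A1 at 0.17 and EEF2 at 0.05. With vehicle 2 translation factors were higher and 1 lower (3.05% and 3.88% of all genes). Secreted hepatocyte proteins (32 genes, median −0.03) had 1 lower, against 2.85% of all genes, which was APOE (−0.45), with AFP at 0.11 and APOB at 0.08. Short-lived cell cycle proteins (17 genes, median 0.09) had 1 higher, against 1.69% of all genes, which was CCNA2 (0.35), with CDC20 at 0.05 and PLK1 at 0.11. The polyamine genes had 4 of 9 higher at that p (median 0.05), against 1.69% of all genes, and these were AMD1, ODC1 (0.41), AZIN1 (0.50) and SAT1 (0.36). With vehicle 1 was higher and 1 lower (3.05% and 3.88% of all genes, median 0.13). ODC1, the enzyme that starts polyamine synthesis, held 205, 206 and 222 CPM and then 304, 258 and 277.

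Histone genes had 11 of 65 higher and none lower, all of them H2B genes, whose reads can be shared between copies, with a median of 0.09 (1.69% of all genes were higher). With vehicle 36 were higher and 1 lower (3.05% and 3.88% of all genes), and the median was 0.39, and the best-read H2AC19 and H4C14 changed by 0.22 and 0.07 at 1.5 μM. The 13 mitochondrially encoded proteins, made on mitochondrial ribosomes, had 5 lower and none higher at 1.5 μM (2.85% and 1.69% of all genes, median −0.36), while with vehicle 1 was higher (3.05% of all genes) and the median was 0.50. MT-CO1, a subunit of cytochrome oxidase, held 515, 885 and 950 CPM and then 562, 797 and 666 with compound, and 279, 1093 and 704 and then 1647, 908 and 773 with vehicle. MT-CO3 had log2 changes of −0.36 and 0.78. The vehicle replicates 1 stood far from the others at each time in MT-CO1, and no member passed adjustment. Over whole coding sequences the stall lists themselves had medians of 0.06 and 0.08 at 1.5 μM, with HSD17B11 (0.26), PCBP2 (0.34) and TMED2 (0.26) the members at an unadjusted p under 0.05 (1.69% of all genes higher). With vehicle the 10-min-only list had a median of −0.12, with 5 of 24 lower and 1 higher at that p (3.88% and 3.05% of all genes).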

How the data were processed

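The processed files hold, for each library and transcript, the number of reads whose P site fell on each codon. Per the study's methods, the authors aligned trimmed footprints to GRCh38 transcripts with Bowtie, kept reads with up to 5 best alignment sites and placed the P site with an offset of 14 bases, so the deposited values are raw counts per codon, with no normalization. Counts were summed per transcript, 3′ to the stall, or over codons 1 to 50. Of 12325 transcripts, 11270 took a gene name from GENCODE v44. Groups came from the labels. The members, gene lists and rules were chosen with earlier results of these data known, and the genes named followed them: calls with at least 100 reads, all members of both stall lists, and up to 4 called or the 2 best-read members of other lists.

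edgeR 4.0.16 (TMM, quasi-likelihood test, low counts filtered) compared times within each treatment, with standard errors taken from the log2 change and its F statistic. The first-50-codon share was the region-by-time term of a model over both regions with library as a factor, single codons used the reads of their transcript as offset, codon identity used limma 3.58.1, DESeq2 1.42.0 (R 4.3.3) was an alternative, and p-values were Benjamini-Hochberg adjusted over all features at an FDR of 0.1. Share regions and single codons needed a mean of at least 20 reads. Scripts were tested on simulated data. Counting precision follows the depth given, and intervals were not used. The 0.3 μM libraries entered 1 alternative only, and some genes are not reported here. The list of 10-min-only stalls came from a shortened copy of the study's table.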

Additional observations from a re-analysis of the deposited data

Results flagged for a closer look

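Reads 3′ to the stall of DAD1 moved differently with time in the 2 treatments. From 10 to 60 min the log2 change was 0.43 with 1.5 μM, with every 60-min library above every 10-min library, and −0.20 with vehicle, with every 60-min library below every 10-min library. The test of the difference itself, the interaction of dose and time in edgeR, gave 0.62 with an adjusted p of 0.835 over 10887 transcripts, so it did not pass correction. DAD1 belongs to a list that the study chose on these libraries for a stall after 10 min and not after 60 min.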

How the results depend on the processing

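Counts of calls at 1.5 μM depended on the tool and on single libraries. For whole coding sequences (2 calls) DESeq2 gave 13, DESeq2 with the replicate block 6, and leaving out 1 library gave 1 (without 10-min replicate 1) to 23 (without 60-min replicate 1). Reads 3′ to the stall (3 calls) gave 13 with DESeq2 and 1 to 33 on leaving out 1 library, the extremes again without 10-min replicate 1 and without 60-min replicate 1. With vehicle (0 calls) DESeq2 gave 43, the replicate block 7, no filter on low counts 3, leaving out the first and last 15 codons 1, and leaving out 1 library 0 to 1. The share in the first 50 codons (1 call) gave 2 with the boundary at codon 40, 0 at codon 100, 0 without codon 1 and the last 15 codons, 0 with at least 50 reads per region, and 0 to 74 on leaving out 1 library (74 without 10-min replicate 3, 62 without 60-min replicate 2, 18 without 60-min replicate 1). Single codons (0 calls) gave 55 with DESeq2 and 0 to 190 on leaving out 1 library (190 without 10-min replicate 3), and codon identity 0 to 1. With 10-min replicate 3 as the only 10-min library, chosen after seeing the data, all of these counts at 1.5 μM were 0, where unadjusted p-values under 0.05 numbered 104 for whole coding sequences, 101 for reads 3′ to the stall, 69 for the first 50 codons and 277 for single codons. That fit assumes that the lone library varies like the 60-min ones.

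The difference at the last codon (0.138) changed sign as a median over transcripts (−0.403), with pooled reads (−0.0397), with 10-min replicate 3 alone (−1.95) and on leaving out 1 library (−1.26 to 1.18). The cause was not tested. The difference over codons 2 to 50 ranged from −0.104 to −0.0635 on leaving out 1 library, and the window differences from −3.11 to −1.22 points (60-min list) and from −0.642 to −0.218 (10-min-only list). GADD45B no longer passed without 10-min replicate 1 (adjusted p = 0.224), without 10-min replicate 3 (adjusted p = 0.110) or with all 18 libraries in 1 fit (adjusted p = 0.179). XBP1 no longer passed without 10-min replicate 1 (adjusted p = 0.314), 10-min replicate 2 (adjusted p = 0.152) or 60-min replicate 3 (adjusted p = 0.356). ARF1 passed for reads 3′ to the stall without 60-min replicate 1 (log2 change 0.53, adjusted p = 0.0769). FTH1 no longer passed for reads 3′ to the stall in 8 of 12 alternatives, among them the replicate block (adjusted p = 0.149).

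Same-numbered libraries of the 2 times did not deviate together in every pair (correlations of −0.191, 0.224 and 0.0626 over 9572 transcripts). Pairs with different numbers ranged from −0.381 to 0.255, so these values cannot show whether the numbers pair the libraries. A fit with the replicate block gave 2 calls for whole coding sequences, 3 for reads 3′ to the stall, 2 for the first 50 codons and 7 for single codons. Depth limits single codons and the share in the first 50 codons, for which 5169 of 12325 transcripts held enough reads.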
